A study of Mus musculus with 8 samples.

Results

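The mRNAs of 10 cyclins and cyclin-dependent kinases (CDKs) were followed through a Flag immunoprecipitation of RNA (RIP) from mouse embryonic stem cells (ESCs). The set holds the D-type cyclins *Ccnd1*, *Ccnd2* and *Ccnd3*, the E-type cyclins *Ccne1* and *Ccne2*, the A-type cyclin *Ccna2*, the B-type cyclins *Ccnb1* and *Ccnb2*, and the kinases *Cdk4* and *Cdk6*. Its members were chosen by gene name, with earlier results of these data known, and each name matched 1 row, so that 10 of the 52550 genes in the count table belong to it. All 10 had at least 1 count per 1000000 reads on genes (CPM) in all 4 inputs, as did 10754 genes in all, and they were tested with these.

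Cyclins are the regulatory partners of CDKs, and their rise and fall orders the cell cycle. D-type cyclins activate CDK4 and CDK6 in G1, E-type cyclins act at the entry into S phase, cyclin A2 acts in S and G2, and B-type cyclins bring cells into mitosis with CDK1. The helicases of the eIF4A family unwind structure in the 5′ untranslated region (UTR) of mRNAs so that ribosomes can load, and mRNAs of several cyclins and CDKs are classical examples of messages whose translation is sensitive to the loss of eIF4A activity. ESCs cycle fast and have a short G1.

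All cells were *Eif4a2* KO ESCs grown in ES-DMEM-2i, a serum medium with LIF and inhibitors of GSK3 and MEK that holds cells in naive pluripotency. They carried either an empty vector (EV), and thus no Flag-tagged protein, or a vector from which Flag-tagged full-length eIF4A2 was re-expressed (eIF4A2-FL). RNA was sequenced from the lysate (input) and from the anti-Flag precipitate (RIP), so that EV and eIF4A2-FL cells each gave 2 input and 2 RIP libraries, 8 in all. Groups are called by fraction and cell line, as in input EV or RIP eIF4A2-FL. The eIF4A2-FL lines were clones that served as biological replicates, whereas the sources used here do not say how the EV replicates arose. Re-expression and clone therefore cannot be told apart, and p-values rest on a spread between libraries that may be only technical for EV. In the label of RIP eIF4A2-FL replicate 2, 1 field names Eif4a3 in place of Eif4a2.

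Reads on genes numbered 3204369 to 7269765 in the inputs, 9976801 and 11206420 in RIP eIF4A2-FL, and 2044853 and 3345151 in RIP EV. The RIP EV libraries stood apart: their biological coefficient of variation was 171%, against 23.1% to 30.1% in the other groups, and 43.4% and 23.7% of the 10754 genes tested had 0 counts in replicates 1 and 2, against 0.307% and 0.521% in RIP eIF4A2-FL. Tags on *Eif4a2* came to 53.8 and 94.2 CPM in input EV and to 86.8 and 69.1 CPM in input eIF4A2-FL. These overlapping levels do not check the knockout, since a 3′ tag can lie outside the edited part and the vector held only the coding sequence. All 8 ESC markers examined were detected in the inputs, although *Pou5f1* tags were few (5.78 to 19.7 CPM in the inputs), while the summed level of 8 fibroblast markers was 1.65 to 11.6 CPM in the inputs, with *Col3a1*, *Postn* and *Lum* at 0 in every library. The 8 markers of differentiated cells summed to 18.0 to 62.3 CPM in the inputs, mostly *Otx2* and *Eomes*.

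The bases around the start codon, where a scanning ribosome begins to translate, are shown for the members on which the results below turn, with the start codon in capitals (mouse reference, GENCODE M21 transcripts of GRCm38; 12 bases before the codon and 6 after it).
Ccnd2: ggccggctggctATGgagctg
Ccnd3: agccatcgcaggATGgagctg
Ccnb1: tttggaggagccATGgcgctc
Ccnb2: agggcggccctcATGgcgctg
*Ccnd2*, *Ccnd3* and *Ccnb1* have a purine at position -3 (the A of ATG is 1) and a G at position 4, the favoured context for initiation. *Ccnb2* has the G but a pyrimidine at position -3, alone among the 10 members. Both bases were in place in 6 of 10 members and in 46.2% of the 9756 transcripts of tested genes that could be read.

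A run of GGC triplets in the 5′ UTR is a feature known from work on eIF4A-dependent mRNAs, which is why it was searched here, on the sense strand of the transcript. *Cdk6* was the only member with 3 such triplets in a row, shown in capitals in this window at chr5:3344178-3344207 (mm10, plus strand), 159 bases before the start codon.
Cdk6: gctctcctgcGGCGGCGGCgcggcgactcg
Of 9876 transcripts with a 5′ UTR, 7.74% held at least 3 GGC in a row and 3.09% at least 4, and no member had 4. The match is a description of the letters and does not show a site of action.

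Before any comparison, the levels in the inputs set the order of the set. Libraries were made from 3′ ends with 1 tag per transcript, so CPM need no correction for length. Reads with several alignments, 44.5% to 52.1% of all reads in the inputs, were not counted for any gene. The order is therefore one of counted tags and may differ from that of the mRNAs. Over the 4 inputs, *Ccnd3* was the most abundant member, with 565 ± 62.3 CPM (mean ± SD, n = 4), which placed it above 97.6% of the genes tested. *Cdk4* (394 ± 74.5 CPM), *Ccne1* (328 ± 97.6 CPM) and *Ccnd1* (313 ± 98.0 CPM) came next, and each overlapped its neighbour in this order. *Ccnb1* (161 ± 50.3 CPM), *Ccna2* (138 ± 14.0 CPM) and *Ccnd2* (93.6 ± 83.1 CPM) formed the middle, and *Cdk6* (44.2 ± 9.27 CPM) and *Ccnb2* (42.2 ± 12.3 CPM) did not differ beyond their spread. *Ccne2* was the scarcest, at 15.7 ± 3.55 CPM, and only here did the range of a member (12.3 to 19.7 CPM) lie clear of its upper neighbour (31.0 to 57.0 CPM). The wide SD of *Ccnd2* came from the cell lines, as described next.

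**Figure D1:**
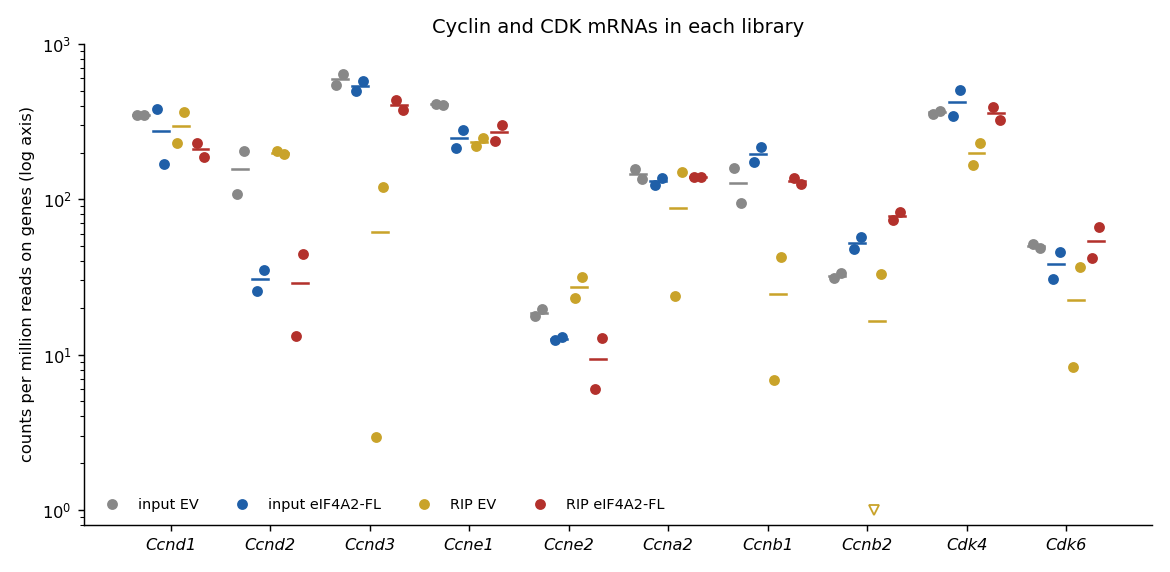
Level of each of the 10 mRNAs in each library, in CPM on a log axis. Points are the 2 libraries of a group and short lines their means; the open triangle at the lower edge marks 0 counts. *Ccnd2* in both eIF4A2-FL groups lies below both EV groups, and the RIP EV libraries are spread widely for *Ccnd3*, *Ccnb1* and *Ccnb2*.

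The first comparison asked whether the mRNAs themselves were at other levels in the eIF4A2-FL cells than in the EV cells, which sets the base for reading a precipitate. *Ccnd2* (chr6:127125162-127152193, minus strand), a D-type cyclin that activates CDK4 and CDK6, had 108 and 205 CPM in input EV but 25.8 and 35.2 CPM in input eIF4A2-FL. All 4 values rest on at least 119 counts, and the groups did not overlap. In bulk RNA, fewer cells with the mRNA and less of it per cell cannot be told apart, and 2 genes on the opposite strand (*9330179D12Rik* and *Gm43126*) share exon positions with *Ccnd2*. In the test on these 4 libraries (edgeR quasi-likelihood, as for all tests unless named), its log2 fold change was -2.35 ± 0.36 (SE; 95% interval -3.14 to -1.56), a level 5.10 times lower, and only 0.0279% of the genes tested lay lower still. The unadjusted p-value was 2.8e-05 and the adjusted p was 0.109, so the difference missed the threshold of 0.05. No gene passed it (0% of 10754), although 796 had an unadjusted p under 0.05. With DESeq2 on the same libraries, which called 0.158% of genes, the adjusted p of *Ccnd2* was 1.6e-05. Over the 13 alternatives it ran from 1.1e-06 to 1.00, and the estimate was between -2.67 and -1.90 in every one. *Ccnd2* passed in 7 of these 13, among them the fits without input EV replicate 1 (-2.67) and without input eIF4A2-FL replicate 1 (-2.16). It did not pass without input EV replicate 2 (-1.90) or without input eIF4A2-FL replicate 2 (-2.54).

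The other D-type cyclins were closer between the inputs. *Ccnd3* (chr17:47505051-47599691, plus strand) had 543 and 645 CPM in input EV and 497 and 577 CPM in input eIF4A2-FL, with a log2 fold change of -0.15 ± 0.31. *Ccnd1* (chr7:144929931-144939925, minus strand) had 350.4 and 349.8 CPM in input EV, and 384 and 168 CPM in input eIF4A2-FL, so that the 2 clones differed more from each other than the cell lines did. As a share of all D-type cyclin counts, *Ccnd2* made up 10.8% and 17.1% in input EV and 2.84% and 4.51% in input eIF4A2-FL.

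**Figure D2:**
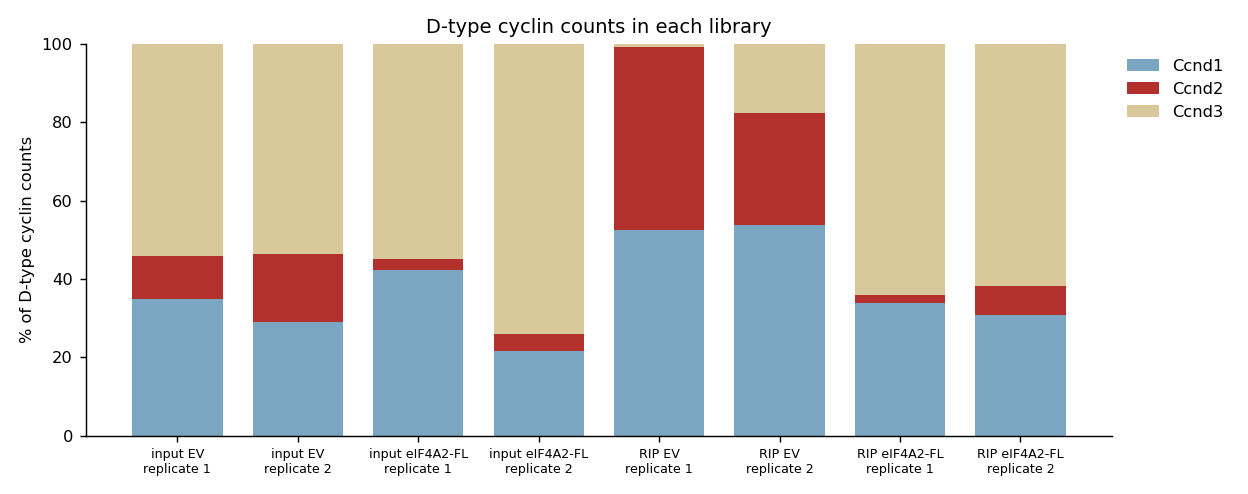
Share of the counts of *Ccnd1*, *Ccnd2* and *Ccnd3* in each library, in percent of their sum. *Ccnd2* takes 1.93% to 7.34% in the 4 eIF4A2-FL libraries and 10.8% to 46.9% in the 4 EV libraries, and *Ccnd3* nearly vanishes from RIP EV replicate 1 at 0.671%.

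Among the E-, A- and B-type cyclins and the kinases, no input difference was called. *Ccne1*, the E-type cyclin with more tags, had 411 and 408 CPM in input EV and 214 and 280 CPM in input eIF4A2-FL. Its log2 fold change was -0.74 ± 0.31, with an adjusted p of 0.667. It was the only other member with an unadjusted p under 0.05 (0.0356). *Ccnb2* went the other way, from 31.0 and 33.4 CPM to 47.6 and 57.0 CPM, with a log2 fold change of 0.69 ± 0.32 and an adjusted p of 0.679. In CPM, 2 members had both eIF4A2-FL inputs above both EV inputs (*Ccnb1* and *Ccnb2*), as did 19.8% of all genes tested, and 4 had them below (*Ccnd2*, *Ccne1*, *Ccne2* and *Cdk6*), as did 17.3%. The median log2 fold change was -0.26 over the 10 members and -0.01 over all genes.

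The second comparison, RIP eIF4A2-FL against input eIF4A2-FL, asked which mRNAs were recovered with the Flag-tagged helicase beyond or below their abundance. Levels here are relative to the other RNAs of the same library, so the amount of RNA precipitated is not measured. In these terms the 10 members stayed within 1.84 times of their input level. Log2 fold changes ran from -0.88 to 0.28, with 8 of 10 below 0 and a median of -0.46. Over all genes the median was 0.02, with quartiles of -0.53 and 0.57. Of the members, 1 was called lower and none higher, that is 1 of 10, against 16.9% of all genes tested (908 higher and 910 lower). An unadjusted p under 0.05 was reached by 2 members, *Ccnd3* and *Ccnb1*, and by 3663 of the 10754 genes. These values rest on TMM scaling; with library size alone the median of all genes moved up by 0.31, the split became 1960 higher and 565 lower, and no member was called.

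The mRNA called lower was *Ccnb1* (chr13:100778650-100786570, minus strand), which encodes the mitotic partner of CDK1. It had 174 and 216 CPM in input eIF4A2-FL and 136 and 126 CPM in the precipitate, so both RIP libraries lay below both inputs. Its log2 fold change was -0.88 ± 0.26 (95% interval -1.46 to -0.30), 1.84 times lower, with an adjusted p of 0.0462. The estimate stayed between -0.98 and -0.57 in all 13 alternatives, but the call held in only 3 of them, and the adjusted p ran from 0.0183 to 0.931. Leaving out RIP eIF4A2-FL replicate 1 (adjusted p = 0.191) or replicate 2 (0.211), or input eIF4A2-FL replicate 2 (0.0926), ended the call.

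*Ccnb2* (chr9:70407692-70421547, minus strand), the second B-type cyclin, showed the opposite order, with 47.6 and 57.0 CPM in the inputs and 74.1 and 82.8 CPM in the precipitate. Its log2 fold change of 0.28 ± 0.26 had an adjusted p of 0.482. Within the pair of B-type cyclins, *Ccnb2* thus took 21.4% and 20.9% of the counts in input eIF4A2-FL and 35.2% and 39.7% in RIP eIF4A2-FL. These shares are free of the scaling between libraries, and the RIP and input shares did not overlap. In EV cells the *Ccnb2* share was 16.4% and 26.0% in the inputs, and in the precipitates without Flag protein it was 0% in replicate 1 and 43.7% in replicate 2, above both RIP eIF4A2-FL values. No test was run on these shares, and how many other pairs of genes separate in this way was not counted.

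Of the D-type cyclins, *Ccnd3* had 437 and 376 CPM after precipitation, below both of its inputs. Its log2 fold change was -0.71 ± 0.26 (95% interval -1.29 to -0.12). Its unadjusted p was 0.0232 and its adjusted p 0.0912, so the lower relative level was not called. *Ccnd1*, at 231 and 188 CPM in the precipitate, had a log2 fold change of -0.73 ± 0.39 (adjusted p = 0.219) and turned to 0.06 without input eIF4A2-FL replicate 1. *Ccnd2* had 13.1 and 44.7 CPM in the precipitate, on either side of its input values, and its log2 fold change of -0.36 ± 0.50 ranged from -1.57 to 0.29 with single libraries left out.

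No difference from input was called for the E-type cyclins and *Ccna2*. *Ccne1* (chr7:38097984-38107534, minus strand) overlapped its inputs, at 236 and 302 CPM in the precipitate. It had a log2 fold change of -0.17 ± 0.28 that turned to 0.13 with library size alone. *Ccna2* (chr3:36564865-36572150, minus strand) had 139 and 140 CPM in the precipitate against 124 and 136 CPM in the inputs. Its 95% interval, -0.78 to 0.36, was among the narrowest of the set, and its log2 fold change of -0.21 ± 0.25 turned to 0.10 with library size alone. *Ccne2* (chr4:11191351-11204779, plus strand), with only 57 to 128 counts in these libraries, had a log2 fold change of -0.73 ± 0.44 and an adjusted p of 0.273.

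Neither G1 kinase was called. *Cdk4* (chr10:127063534-127067920, plus strand) had 343 and 504 CPM in input eIF4A2-FL and 392 and 322 CPM after precipitation, with a log2 fold change of -0.55 ± 0.28 (adjusted p = 0.201). *Cdk6* (chr5:3341485-3531008, plus strand), whose 5′ UTR holds the GGC run shown above, had 30.7 and 45.8 CPM in the inputs and 41.9 and 66.0 CPM in the precipitate. Its log2 fold change was 0.20 ± 0.32, with a 95% interval of -0.52 to 0.92 and an adjusted p of 0.701.

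Whether the groups overlapped depended on the scale. In CPM, both RIP libraries were above both inputs for *Ccna2* and *Ccnb2* (45.8% of all genes) and below them for *Ccnd3* and *Ccnb1* (18.7%). In TMM-scaled CPM, only *Ccnb2* was above (31.7% of all genes), and *Ccnd3*, *Ccne2*, *Ccna2*, *Ccnb1* and *Cdk4* were below (29.9%). *Ccnb2* above input, and *Ccnd3* and *Ccnb1* below it, were common to both scales.

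**Figure D3:**
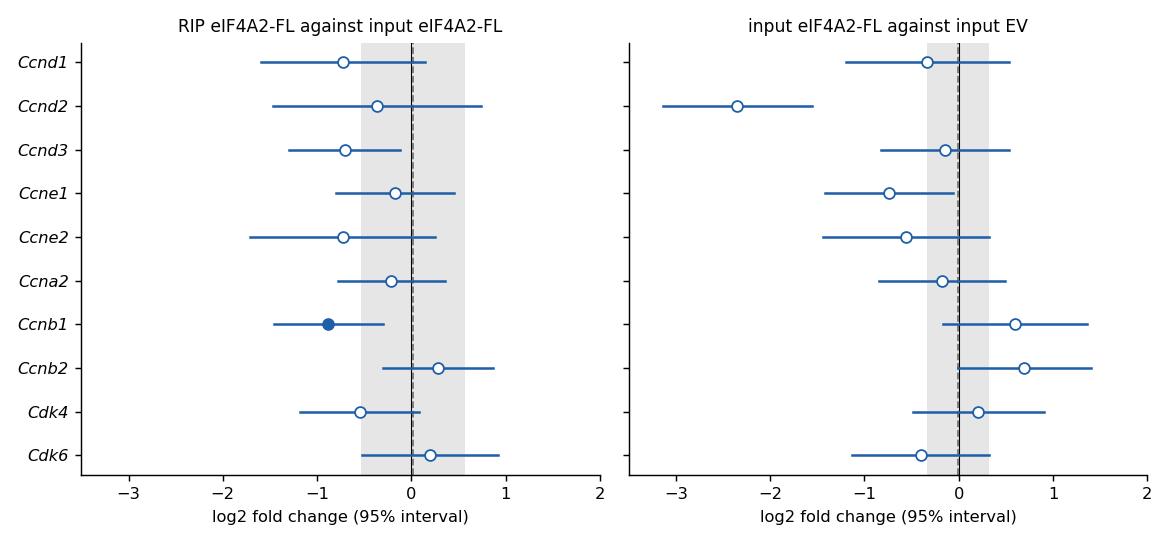
Log2 fold change of each member with its 95% interval, for RIP eIF4A2-FL against its input (left) and for input eIF4A2-FL against input EV (right). The filled circle is the call in the main test (*Ccnb1*), the grey band and dashed line are the quartiles and median of all 10754 genes, and *Ccnd2* at -2.35 in the right panel lies far outside the band.

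The third comparison set the eIF4A2-FL precipitate against that of EV cells, which hold no Flag-tagged protein. The EV precipitate gives the relative levels of RNAs that the antibody and beads retain by themselves, not their amounts. Replicates of RIP EV disagreed for part of the set. *Ccnd3* had 6 counts (2.93 CPM) in replicate 1 and 402 counts (120 CPM) in replicate 2. *Ccnb1* had 14 and 142 counts, and *Ccnb2* had 0 and 110, the former of which allows a level of up to 1.47 CPM at 3 counts, for counting error only. *Ccna2* (24.0 and 151 CPM) and *Cdk6* (8.31 and 36.5 CPM) also differed several-fold, whereas *Ccnd2* (205 and 195 CPM), *Ccne1* (222 and 249 CPM) and *Cdk4* (167 and 232 CPM) were close between replicates.

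The ratio of CPM in RIP EV replicate 1 to the mean CPM of its own inputs was 0.494% for *Ccnd3*, 5.40% for *Ccnb1* and 0% for *Ccnb2*. These 3 of 10 members were under 10%, as were 49.4% of all genes tested. In the same library the ratio was 131% for *Ccnd2* and 123% for *Ccne2*. In replicate 2 no member was under 10% (28.7% of all genes were), the lowest being *Ccnd3* at 20.2% and the highest *Ccne2* at 168%. In the eIF4A2-FL precipitates the same ratio ran from 43.1% (*Ccnd2*) to 142% (*Ccnb2*) in replicate 1 and from 64.4% (*Ccnb1*) to 172% (*Cdk6*) in replicate 2. Reads counted as matching no annotated feature made up 45.8% and 29.7% of all reads in the table for RIP EV replicates 1 and 2. In RIP eIF4A2-FL they made up 3.30% and 4.13%. The part of this in the differences was not tested.

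**Figure D4:**
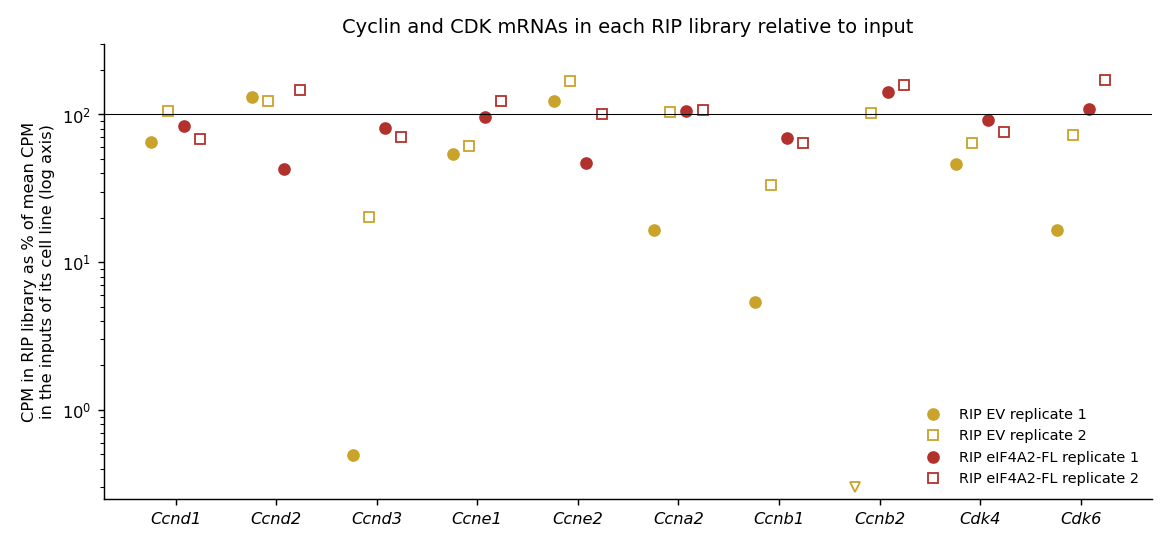
Level of each member in each RIP library, in percent of its mean CPM in the 2 inputs of the same cell line, on a log axis where the line marks 100%. The open triangle at the lower edge marks 0 counts of *Ccnb2* in RIP EV replicate 1; the eIF4A2-FL libraries lie between 43.1% and 172% for all members, and RIP EV replicate 1 spans 0% to 131%.

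No member was called between RIP eIF4A2-FL and RIP EV, and neither was any other gene (0% of 10754), with 1 member (*Ccnd2*) and 3149 genes at an unadjusted p under 0.05. *Ccnd2*, with 13.1 and 44.7 CPM in RIP eIF4A2-FL, was below both RIP EV libraries. Its log2 fold change of -3.00 ± 0.81 had an adjusted p of 0.094, beside the input difference of -2.35 between the same cells. *Ccnd2* was called lower by DESeq2 on these libraries (which called 12.4% of genes), by edgeR on all 8 libraries (30.2%) and by DESeq2 on all 8 (40.9%), the last of which also called *Ccne2* lower and *Ccnb1* higher. The replicate block, which called 3.54% of genes, called *Ccnd2* lower too. Library size alone (adjusted p = 0.102), thinning to the smallest library (0.0817), the other filters and limma voom with group weights (0.203) did not call it. With single libraries left out, which leaves a lone library in a group, its log2 fold change ran from -4.23 to -2.42.

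The highest estimates were those of *Ccnd3* (2.46 ± 1.66), *Ccnb1* (2.16 ± 1.08) and *Ccnb2* (1.99 ± 2.27), each with an interval that included 0. They moved with the RIP EV replicates: without replicate 1 they were 1.50, 1.37 and 1.00, and without replicate 2 they were 6.90, 4.05 and 12.23. The last of these sets *Ccnb2* against a lone library with 0 counts and is not a bound. *Ccne1* was at -0.03 ± 0.33 with an interval of -0.97 to 0.91, and *Cdk4* was at 0.60 ± 0.35. In CPM, 5 members (*Ccnd3*, *Ccnb1*, *Ccnb2*, *Cdk4* and *Cdk6*) had both eIF4A2-FL precipitates above both of EV, as did 51.9% of all genes, and *Ccnd2* and *Ccne2* had them below, as did 12.1%. The median was 0.51 over the members and 0.67 over all genes.

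In RIP EV against input EV, which shares the RIP EV libraries with the comparison above, again no gene was called (0%), with 3175 genes and 1 member, *Ccne1*, at an unadjusted p under 0.05. *Ccnd3* (-3.29 ± 1.57) and *Ccnb1* (-2.40 ± 1.07) had the lowest estimates and *Ccne2* (0.52 ± 1.14) and *Ccnd2* (0.34 ± 0.44) the highest. Both RIP EV libraries were below both inputs in CPM for 5 members (*Ccnd3*, *Ccne1*, *Ccnb1*, *Cdk4* and *Cdk6*; 44.9% of all genes) and above them for *Ccne2* (14.6%). The RIP over input change was also compared between the cell lines in 1 model of all 8 libraries. It was called in no member, against 21.3% of all genes tested. That share was 0% with limma voom and group weights, and moved both ways with single libraries left out. The model shares 1 estimate of the spread over all 8 libraries, although RIP EV varied far more. An unadjusted p under 0.05 was found for no member and for 3263 of the 10754 genes. *Ccnd3* had the highest difference, 2.58 ± 1.65 (adjusted p = 0.386), and *Ccne2* the lowest, -1.26 ± 0.96. Without RIP EV replicate 1, *Ccnd3* was called, 1 of 10 members against 47.7% of all genes in that fit. Without replicate 2, *Ccnd3*, *Ccna2*, *Ccnb1*, *Ccnb2* and *Cdk6* were called, 5 of 10 against 66.4%.

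**Figure D5:**
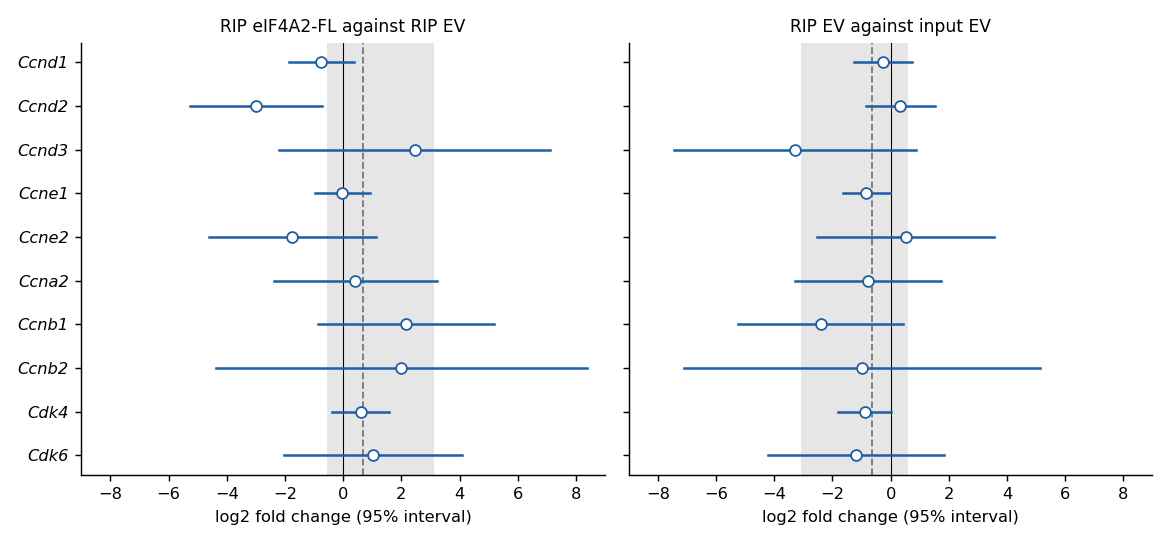
Log2 fold change of each member with its 95% interval for RIP eIF4A2-FL against RIP EV (left) and RIP EV against input EV (right), drawn as in the plot of changes against input. All circles are open because no member was called, the grey bands of all genes are wide, and the intervals of *Ccnd3* and *Ccnb2* span several log2 units; both panels share the RIP EV libraries.

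Other parts of the cell cycle machinery were counted in RIP eIF4A2-FL against its input, where 16.9% of all genes were called. The genes named here are given with their levels in EV cells, which hold no Flag-tagged protein. Of 8 other cyclins and CDKs tested, only *Cdk1*, the mitotic kinase that cyclin B1 activates, was called. It had 773 and 1233 CPM in the inputs and 580 and 589 CPM in the precipitate, a log2 fold change of -1.08 ± 0.30 with an adjusted p of 0.0358, and the list's median was -0.07. In EV cells *Cdk1* had 805 and 641 CPM in the inputs and 336 and 180 CPM in the precipitates. Of 5 CDK inhibitors none was called, with a median of -0.62. An unadjusted p under 0.05 was found for 2 of these 5, as it was for 3663 of all 10754 genes. Of 12 genes of the Rb and E2F families, *E2f1*, an activator of S phase genes, was lower (-1.72 ± 0.35, adjusted p = 0.0124), with a median of 0.23. In EV cells *E2f1* had 186 and 332 CPM in the inputs and 53.3 and 120 CPM in the precipitates.

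Among 17 phosphatases, kinases and ubiquitin ligase subunits of the cycle, 3 were higher and none lower, with a median of 0.23. *Cul1*, the scaffold of the SCF ubiquitin ligases, which degrade cyclin E among other targets, had 77.0 and 86.1 CPM in the inputs and 234 and 347 CPM in the precipitate (log2 fold change 1.53 ± 0.30, adjusted p = 0.011). Without Flag protein it had 104 and 112 CPM in input EV and 317 and 152 CPM in RIP EV, so both EV precipitates were above both EV inputs too. *Pkmyt1*, a kinase that holds CDK1 inactive, was higher by 1.09 ± 0.30 (adjusted p = 0.0353), and in EV cells had 15.0 and 11.5 CPM in the inputs and 10.3 and 56.8 CPM in the precipitates. Of 8 other mRNAs listed as eIF4A-sensitive and tested, *Notch1* was higher (1.48 ± 0.34, adjusted p = 0.02) and the median was -0.12. *Notch1* was above both inputs in the EV precipitates as well, with 65.0 and 13.2 CPM against 5.78 and 9.36 CPM.

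The members were also compared with the other genes by the length and composition of their transcripts. Their 5′ UTRs were 107 to 327 bases long, with a median of 242 against 169 over 10081 genes, which include those annotated without a 5′ UTR. Their GC content was 56.8% to 74.8%, with a median of 68.6% against 65.4% over the 9876 genes with a 5′ UTR. *Ccnd2*, *Ccnd3* and *Ccnb1* had the lowest 5′ UTR GC of the set (56.8%, 58.4% and 59.5%), and *Ccnb2* and *Ccne1* the highest (74.8% and 74.4%). Over the 10 members, the log2 fold change of RIP eIF4A2-FL against input went with 5′ UTR GC with r = 0.61 (Pearson) and rho = 0.66 (Spearman). Over the 9876 genes with a 5′ UTR, the same values were 0.11 and 0.11, and all points share the same 4 libraries. The 3′ UTRs spanned 227 bases (*Ccnb2*) to 10217 bases (*Cdk6*), and their length went with the change at an r of 0.38 and a rho of -0.20 over the members, and at -0.01 and -0.02 over all genes. For 5′ UTR length, r was 0.06 over the members and 0.05 over all genes, and for the GC content of the coding sequence it was -0.04 over the members and 0.13 over all genes. Of these 4 features, 5′ UTR GC had the highest r over the members and coding GC the highest over all genes. The values over the members rest on only 10 genes, and how they move with single libraries left out was not tested.

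The profiles over the 8 libraries fell into different shapes. In log2(CPM + 1), *Ccnd2* was most like *Ccne2* (Pearson r of 0.93, n = 8 libraries), another member, among 7921 genes with a mean of at least 10 CPM, and then like *Tmem41a* (0.93) and *Slc35a4* (0.92). *Ccnd3* was most like *Mrpl44*, *Acbd6* and *Uqcrfs1* (each above 0.99), and *Ccnb1* most like *Ramp3*, *March6* and *Samm50*. Of these 6 genes, all but *Samm50* had 0 counts in RIP EV replicate 1, as did 43.4% of all genes tested. *Samm50* had 189 CPM there, against 512.7 CPM or more in the other libraries. *Ccnd3* (2.93 CPM) and *Ccnb1* (6.85 CPM) were also lowest in that library, and no r was computed without it. *Ccnd2* and *Ccnd3* had an r of -0.48 with each other, and *Ccnd3* and *Ccnb1* one of 0.97.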

How the data were processed

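QuantSeq 3′ libraries of input and anti-Flag RIP RNA were trimmed, mapped to mm10 (STAR, version 2.5.3a) and assigned to genes (HTSeq, version 0.11.2) by the authors. The deposited values are raw counts, 1 column per library, and 5 summary lines stayed out of totals and tests. Of all reads in the table, 19.9% to 68.2% lay on genes; reads with several alignments made up 27.0% to 52.1%. Neither the annotation release nor whether counting used strand is stated, and 7 of the 10 members share exon positions with a gene on the opposite strand (all but *Ccne1*, *Ccnb1* and *Ccnb2*). Pseudogenes named after *Ccnb1*, *Ccnb2* and *Ccnd3* held 0 to 3 counts per library. Since reads with several alignments were left out, these counts do not show whether members share reads with such copies. Names and positions were taken from GENCODE M21 (GRCm38), which matched 52403 of 52550 identifiers, and 5′ and 3′ UTRs from the transcript with the longest coding sequence.

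Each pair of groups was compared with edgeR (version 4.0.16, R version 4.3.3) on its 4 libraries alone, since the spread of RIP EV differed from that of the other groups, and the difference between cell lines on all 8. TMM factors, quasi-likelihood tests and Benjamini-Hochberg adjustment over the 10754 genes that reached 1 CPM in every input were used, with a threshold of 0.05. CPM are on reads on genes. The floor of 3 counts covers counting error only, as reads carry no molecular identifiers. Alternatives were other scalings, filters and depths, DESeq2 (version 1.42.0), a replicate block, leaving out each library and, chosen after seeing the data, limma voom (version 3.58.1) with a weight per group. Named genes were all members, of each other cell cycle list and the eIF4A-sensitive list at most 2 called genes per direction in RIP eIF4A2-FL against input, and the 3 genes most like each of 3 members. The members and lists were chosen with earlier results of these data known, and the 3 members for profiles after their values were seen.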

Additional observations from a re-analysis of the deposited data

How the results depend on the processing

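For RIP eIF4A2-FL against input, the number of members called was 1 (*Ccnb1*) in the main test and 0 with library size alone, edgeR or DESeq2 on all 8 libraries, filterByExpr, no filter beyond 1 count, the replicate block, and voom with group weights; leaving out single libraries gave 0 to 1, where the 1 was *Ccnb1* without input eIF4A2-FL replicate 1, *Ccnd1* without input eIF4A2-FL replicate 2 and *Ccnd2* without RIP eIF4A2-FL replicate 2. For RIP eIF4A2-FL against RIP EV the main test called 0 members, DESeq2 on the same libraries and edgeR on all 8 each 1, DESeq2 on all 8 called 3, the replicate block 2, and leaving out single libraries 0 to 8. For the inputs, 0 became 1 (*Ccnd2*) with library size alone, DESeq2 on the same libraries, no filter beyond 1 count, thinning and the replicate block, and was 0 to 1 with single libraries left out. For RIP EV against input EV, 0 became 4 with DESeq2 on all 8 libraries (42.0% of all genes), 1 with the replicate block, and 0 to 6 with single libraries left out. For the difference between cell lines, 0 became 0 to 5 with single libraries left out. The causes were not tested. Over all genes, the calls for RIP eIF4A2-FL against input fell from 908 higher and 910 lower to 0 and 6 with edgeR on all 8 libraries, to 274 and 430 with DESeq2 on all 8, to 574 and 516 without RIP eIF4A2-FL replicate 1 and to 403 and 455 without replicate 2. Those between the RIPs rose from 0 to 2664 higher and 587 lower with edgeR on all 8, 3270 and 1128 with DESeq2 on all 8, 806 and 523 with DESeq2 on the same libraries, and 4705 and 2321 or 6349 and 2000 without RIP EV replicate 1 or 2. For the difference between cell lines, 2068 higher and 226 lower became 0 and 0 in each of the 5 fits that left out input EV replicate 1 or any 1 eIF4A2-FL library, as with voom, 3858 and 1272 without RIP EV replicate 1, and 5806 and 1337 without replicate 2. RIP EV against input EV, 0 in the main test, gave 305 and 487 with DESeq2 on the same libraries, 484 and 2828 with edgeR on all 8, 1075 and 3442 with DESeq2 on all 8, 154 and 272 with the replicate block, and 1747 and 6483 without RIP EV replicate 2; the inputs gave at most 39 and 22 (replicate block), or 32 and 53 without input EV replicate 1.

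Whether libraries with the same replicate number came from the same clone or lysate is not stated. The deviations of same-numbered libraries correlated at -0.07 to 0.12 between groups. Such values cannot show whether the samples are paired, because noise of single libraries also lowers them. The replicate block shows only what a shared number does.

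Of 670 log2 fold changes of members under alternatives, 586 kept their direction and side of the threshold, 51 newly passed it, 10 no longer passed it and 23 changed sign, none of them past the threshold in either fit. Against input in eIF4A2-FL cells, *Ccna2* turned to 0.10 and *Ccne1* to 0.13 with library size alone, *Ccnd2* to 0.11 when thinned, and with single libraries left out *Ccnd1* ran from -1.23 to 0.058, *Ccnd2* from -1.57 to 0.29, *Ccne1* from -0.42 to 0.028 and *Cdk6* from -0.22 to 0.52. Between the RIPs, *Ccne1* turned to 0.016 with filterByExpr, 0.17 with library size alone and 0.051 with no filter, and ran from -0.30 to 0.11 with single libraries left out, as *Ccna2* did from -0.37 to 2.33. Between the inputs, *Ccna2* ran from -0.34 to 0.043, *Ccnd1* from -1.09 to 0.17 and *Cdk4* from -0.045 to 0.44. In RIP EV against input EV, *Ccna2* ran from -2.65 to 0.0086, *Ccnb2* from -10.06 to 0.0041, *Ccnd1* from -0.65 to 0.040 and *Ccnd2* from -0.041 to 0.73. In the difference between cell lines, *Ccna2* ran from -0.20 to 2.49 and *Ccnd1* from -0.96 to 0.29. With 1 library of a group left out, the lone library is assumed to vary like the others.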
